A study of Homo sapiens with 10 samples.

Results

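The genes described here are the aminoacyl-tRNA synthetases and a set of genes of the integrated stress response in U2OS, a human osteosarcoma cell line with wild-type p53. They were chosen by symbol: a letter followed by ARS, with or without 1 or 2 at the end, plus EPRS, FARSA and FARSB, and 13 named stress response genes. That rule found 50 of the 26040 genes listed: 20 cytosolic synthetases, 17 mitochondrial synthetases and 13 genes of the ATF4 type. The libraries measure poly(A) RNA, made with a stranded mRNA kit. All cells carried an shRNA and were kept under puromycin at 1 µg/ml. The untreated control shRNA line gave 1 library, and the same line given 10 µM nutlin-3a for 24 h gave 3. Lines with 1 of 3 shRNAs against ARVCF, a catenin of cell junctions, gave 3 untreated libraries and 3 given 10 µM nutlin-3a for 24 h. Each shARVCF line (1, 2 and 3) was thus read once in each condition, and the control is a single line, so line and knockdown cannot be told apart in any comparison with it. The labels describe the selected cells as clones, so each line may stem from 1 cell. Nutlin-3a blocks MDM2, the ubiquitin ligase that degrades p53, and so raises p53. The study asked how loss of ARVCF changes the transcription that p53 drives.

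Aminoacyl-tRNA synthetases join each amino acid to its tRNA. Cytosol and mitochondria mostly have separate enzymes, and many of the cytosolic ones sit in a large complex held by scaffold proteins. When amino acids run short, or when unfolded protein, viral RNA or lack of haem is sensed, kinases phosphorylate the initiation factor eIF2. General translation then slows while the mRNA of the transcription factor ATF4 is translated better. ATF4 raises genes for amino acid synthesis (ASNS, PSAT1, PHGDH, PSPH), amino acid uptake (SLC7A5, SLC3A2), many cytosolic synthetases, and the stress factors DDIT3 (CHOP), ATF3, TRIB3 and CHAC1. Several members, among them ATF3 and DDIT4, are also known to respond to p53 or DNA damage.

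ATF4 and C/EBP factors bind composite elements with the core TGATGCAA, and the data bear on genes that share it. Promoter windows of 250 bases before to 50 after the start (RefSeq, GRCh38.p14) were found for 42 of the 50 members. The core was searched on both strands. It was present for 6 of 16 cytosolic synthetases (37.5%), 0 of 14 mitochondrial synthetases and 1 of 12 ATF4-type genes (8.33%). Of all 27305 genes with a window, 1.08% had it. The stretches below show the core in capitals within 30 bases of the gene's own strand, 5′ to 3′. They are printed because these genes, although alike in this element, did not respond alike to nutlin-3a. For AARS, CARS, IARS, MARS, TARS and CHAC1 the core lies on the other strand and so reads TTGCATCA here.
AARS, chr16:70289675-70289704, minus strand: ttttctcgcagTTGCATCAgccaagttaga
CARS, chr11:3057407-3057436, minus strand: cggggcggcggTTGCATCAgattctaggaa
IARS, chr9:92293692-92293721, minus strand: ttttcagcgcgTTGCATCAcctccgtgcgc
MARS, chr12:57488053-57488082, plus strand: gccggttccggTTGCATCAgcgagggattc
NARS, chr18:57621804-57621833, minus strand: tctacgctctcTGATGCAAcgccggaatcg
TARS, chr5:33440956-33440985, plus strand: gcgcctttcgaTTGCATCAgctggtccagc
CHAC1, chr15:40953251-40953280, plus strand: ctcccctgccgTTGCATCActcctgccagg

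The looser core TGATGNAA, which includes every TGATGCAA, was present for 7 of 16 cytosolic synthetases (43.8%), 1 of 14 mitochondrial synthetases (7.14%) and 4 of 12 ATF4-type genes (33.3%), against 4.46% of all genes. It adds ASNS, which makes asparagine, ATF3, GARS, SLC3A2 and YARS2. The stretches of ASNS and ATF3 are printed because the main test called ATF3 higher in both kinds of line and ASNS, also a known ATF4 target, in neither. A fit with a block on line did call ASNS lower in the shARVCF lines (limma adjusted p = 2.63e-05). By the main test SLC3A2 was called higher in the control line only, and GARS and YARS2 were called in neither. SARS, the synthetase that rose most in the shARVCF lines, had a window but neither core in it. A match is a run of letters and was not tested as a binding site.
ASNS, chr7:97872458-97872487, minus strand: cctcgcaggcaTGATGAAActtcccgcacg
ATF3, chr1:212565205-212565234, plus strand: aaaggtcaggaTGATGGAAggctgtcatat

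All values are the authors' scaled fragments, an estimated number of fragments per gene multiplied by a factor per library. They totalled 17821751 to 19903778 per library. ARVCF read 617.7 in the untreated control and 292, 343 and 338 in the untreated shARVCF lines 1 to 3. It read 2928, 2571 and 2376 in the nutlin-3a control and 1284, 1188 and 1232 in the nutlin-3a shARVCF lines. The mesenchymal markers VIM, SPARC, COL1A1, RUNX2, CDH2 and FN1 were at 328 or more in every library. COL1A2, usual in bone-forming cells, was near 0 (1.83 to 15.5). Among markers of other cells, CD3E, HBB and ALB were at or near 0, PTPRC, PECAM1 and CDH1 read at most 34.7 and EPCAM 43.8 to 143. By their library numbers, the nutlin-3a control's replicates 2 and 3 were numbered after the other 8 libraries, and they are treated here as a second library series. That series lies wholly within 1 group. A fit with series as a term, or of the first series alone, thus takes the nutlin-3a control level from replicate 1 alone.

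Of the members, 48 passed the filter of at least 10 in at least 3 libraries. The valine enzymes VARS and VARS2 did not and are listed at 0.98 or less in every library. Both lie on chromosome 6 (hg38, 31777518 to 31795953 and 30908242 to 30926459). In a window around them, chosen after their values were seen (chromosome 6, 29000000 to 33000000), 93.1% of protein-coding genes (135 of 145) were under 10 in every library, against 25.2% elsewhere. Why that window reads low was not tested, and nothing is said here of the expression of these genes. Per kb of spliced length, the mean over the 10 libraries was highest for ATF4 (5676 scaled fragments per kb), SARS (4785), GARS (2412), QARS (2267), SLC7A5 (2064) and SLC3A2 (1769). It was lowest among tested members for CARS (18.8), VLDLR (34.5) and MARS2 (36.9). The mitochondrial enzymes ran from 36.9 (MARS2) to 641 (IARS2), below most of the cytosolic ones.

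By the main test, nutlin-3a raised ATF3, DDIT3, DDIT4 and TRIB3 and lowered PHGDH in both kinds of line. ASNS, PSAT1, PSPH, CHAC1, SLC7A5 and VLDLR were called in neither by that test. In the shARVCF lines 4 of 13 rose, 1 fell and 8 were not called, with a median log2 change of 0.21. In the control line 6 rose, 1 fell and 6 were not called, with a median of 0.79. A gene is called here when limma's moderated test across all 14955 tested genes gave an adjusted p under 0.05. By the same rule nutlin-3a changed 42.8% of all tested genes in the shARVCF lines (21.0% upward, 21.7% downward, median -0.00) and 57.1% in the control line (25.1% upward, 32.0% downward, median -0.10). Over both directions together, the called shares of the ATF4-type genes are thus close to those of all genes. By direction they lean upward, with 4 of 13 higher and 1 lower in the shARVCF lines against 21.0% and 21.7%. In the control line 6 of 13 were higher and 1 lower, against 25.1% and 32.0%. This lean was not tested. With the length and GC trend described below removed, their medians were 0.18 in the shARVCF lines and 0.33 in the control line. Those of all genes were then 0.05 and 0.10. A fit with a block on line also called ASNS and SLC7A5 lower in the shARVCF lines and CHAC1 higher in the control line. That fit called 47.9% of all genes in the shARVCF lines and 61.8% in the control line. The control line effect rests on 1 untreated library, which is assumed to vary like the other groups. Lower RNA per cell and fewer cells with the RNA cannot be told apart in such bulk samples.

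ATF3, a stress-induced repressor of the same family as ATF4, read 145, 146 and 236 in untreated shARVCF lines 1, 2 and 3 and 699, 536 and 570 under nutlin-3a. It read 205 in the untreated control and 647, 770 and 789 in the nutlin-3a control libraries. Every treated library lay above every untreated library. The rise was 3.48-fold in the shARVCF lines (log2 1.798, SE 0.18, limma adjusted p = 7.1e-06) and 3.57-fold in the control (log2 1.83, SE 0.26, adjusted p = 7.7e-05).

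DDIT3 (CHOP; hg38, chromosome 12, 57516588 to 57521737, minus strand), a factor of prolonged stress, read 239, 261 and 204 in the untreated shARVCF lines and 477, 553 and 432 under nutlin-3a. It read 194 in the untreated control and 951, 732 and 852 in the nutlin-3a control. All nutlin-3a control libraries thus lay above all nutlin-3a shARVCF libraries. The rise was 2.07-fold in the shARVCF lines (log2 1.05, SE 0.14, limma adjusted p = 7.02e-05) and 4.32-fold in the control (log2 2.11, SE 0.20, adjusted p = 2.81e-06). DDIT3 overlaps MARS, the methionine enzyme on the other strand, by 982 bases. MARS was not called in either kind of line (log2 -0.32 and -0.08). The library kit keeps strand, but no source used here says whether the counting did. The same holds for other members that share bases with a gene on the other strand, such as CARS2 (ING1, 868 bases), DARS (DARS-AS1, 925) and DDIT4 (DDIT4-AS1, 1066).

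DDIT4, an inhibitor of mTORC1, read 1199, 1049 and 1211 in the untreated shARVCF lines and 2007, 1989 and 2102 under nutlin-3a. It read 979 in the untreated control and 1901, 1811 and 1976 in the nutlin-3a control. Treated and untreated libraries do not overlap. Between nutlin-3a shARVCF and control libraries DDIT4 was not called (log2 0.10), but with the length and GC trend described below removed it was called higher in the shARVCF lines (0.72, limma adjusted p = 4.39e-05). The log2 rises were 0.82 (SE 0.09, limma adjusted p = 9.72e-06) and 0.95 (SE 0.12, adjusted p = 3.71e-05).

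TRIB3, a pseudokinase that dampens ATF4, read 539, 534 and 732 in the untreated shARVCF lines and 741, 775 and 1220 under nutlin-3a. The value of treated line 1 lies barely above that of untreated line 3. TRIB3 read 492 in the untreated control and 1348, 1212 and 1107 in the nutlin-3a control. Its log2 rise was 0.58 in the shARVCF lines (SE 0.19, limma adjusted p = 0.0272) and 1.31 in the control line (SE 0.26, adjusted p = 0.00132). In the shARVCF lines the TRIB3 call was lost without untreated line 1 (adjusted p = 0.0889), untreated line 2 (0.0916) or treated line 3 (0.0814), and in the first library series alone (0.061).

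The mRNA of ATF4 itself read 9532, 7485 and 13095 in the untreated shARVCF lines and 9352, 7862 and 13773 under nutlin-3a, the same order of lines in both. It read 8394 in the untreated control and 14481, 14816 and 15806 in the nutlin-3a control. It was not called in the shARVCF lines (log2 0.04, SE 0.23, limma adjusted p = 0.911) and was called higher in the control line (log2 0.84, SE 0.32, adjusted p = 0.045). The control call is a thin one: it was lost when any 1 nutlin-3a control library was left out (adjusted p 0.0762 to 0.088), without line 1 in either condition (0.0616 and 0.0604), with library series as a term (0.162) and on removing the length and GC trend described below (0.364). The first library series alone also lost it, while the other alternatives, among them the block on line, kept it. The SD of ATF4 was 2839 and 3074 in the untreated and nutlin-3a shARVCF lines and 689 in the nutlin-3a control, and the main fit shares 1 spread. ATF4 is regulated at translation, which poly(A) RNA does not show. CHAC1, which degrades glutathione, read 174, 94.1 and 259 in the untreated shARVCF lines and 175, 130 and 308 under nutlin-3a, and was not called (log2 0.24, SE 0.37). In the control it went from 104 to 208, 200 and 172, which was also not called (log2 0.88, SE 0.53, limma adjusted p = 0.181) but was called with the block on line (adjusted p = 0.00347).

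Among the serine enzymes, PHGDH, which catalyses the entry step of serine synthesis, read 4230, 2990 and 4464 in the untreated shARVCF lines and 737, 635 and 1252 under nutlin-3a. It read 3052 in the untreated control and 775, 788 and 694 in the nutlin-3a control. Every treated library lay below every untreated one. PHGDH fell 4.58-fold in the shARVCF lines (SE 0.24 on the log2 scale, limma adjusted p = 5.31e-05) and 4.06-fold in the control (log2 -2.02, SE 0.34, adjusted p = 0.000619), and was the ATF4-type member called lower in each. PSAT1, the next enzyme of the pathway, read 843, 569 and 1081 and then 529, 542 and 793 in the shARVCF lines and was not called (log2 -0.40, SE 0.27). PSPH, the last enzyme, read 396, 325 and 445 and then 387, 459 and 630 (log2 0.32, SE 0.18, not called). Neither was called in the control line (log2 -0.53 and 0.16). ASNS read 1410, 813 and 1999 in the untreated shARVCF lines and 614, 503 and 1167 under nutlin-3a. It was lower in each line (log2 -1.20, -0.69 and -0.78), yet the untreated lines differ so much that the groups overlap. The main test did not call it (log2 -0.89, SE 0.38, limma adjusted p = 0.103), while the fit with a block on line did (adjusted p = 2.63e-05). In the control, ASNS went from 825 to 661, 596 and 667 (log2 -0.36, SE 0.54, not called).

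Of the transporter subunits, SLC3A2 was called in the control line and SLC7A5 in neither kind of line. SLC3A2, the heavy chain shared by several amino acid exchangers, went from 3126 in the untreated control to 6343, 5192 and 4847 under nutlin-3a (log2 0.79, SE 0.21, limma adjusted p = 0.00689). In the shARVCF lines it read 2667, 3085 and 3904 and then 2933, 3410 and 3803, which was not called (log2 0.08). The light chain SLC7A5 was not called in either (log2 -0.23 and -0.07); the block on line called it lower in the shARVCF lines (limma adjusted p = 0.0423). VLDLR, a lipoprotein receptor reported as an ATF4 target, was not called in either (log2 0.21 and -0.32). Without the length and GC trend, the control values of ATF4 (log2 0.36) and SLC3A2 (0.35) were no longer called, that of DDIT4 was 0.33 (adjusted p = 0.0383), and VLDLR was called higher at 0.76.

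**Figure D1:**
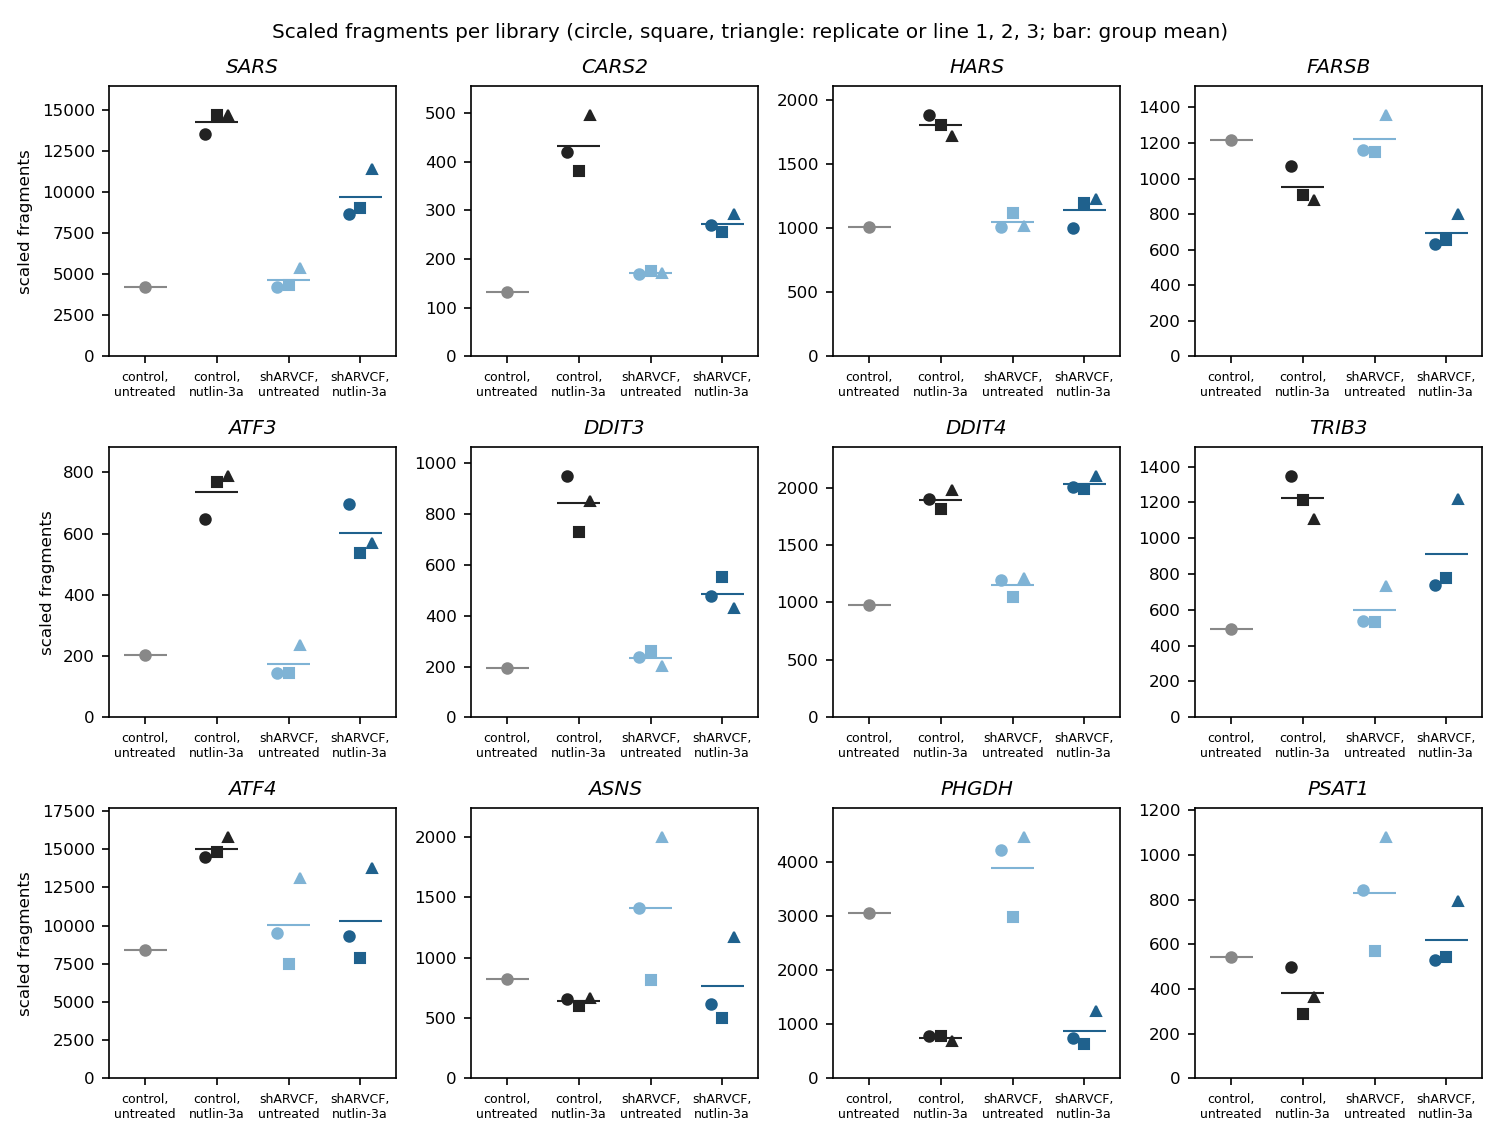
Scaled fragments (vertical axis, from 0) of 12 members in each of the 10 libraries, by shRNA and treatment; circles, squares and triangles are replicate or line 1, 2 and 3, and bars are group means. SARS, CARS2, ATF3, DDIT3 and DDIT4 rise and PHGDH falls without overlap in both kinds of line, HARS is higher under nutlin-3a in the control line, and line 3 stands above lines 1 and 2 for ATF4, ASNS and PSAT1 in both conditions.

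Among the cytosolic synthetases, SARS rose in both kinds of line, and IARS and LARS were called lower in both. Of the 35 tested synthetases, 3 rose and 6 fell in the shARVCF lines, and 8 rose and 7 fell in the control line. The called shares, 9 and 15 of 35, are below those of all genes. In the cytosolic class 1 of 19 rose and 4 fell in the shARVCF lines (median log2 -0.16), and 6 rose and 4 fell in the control line (median 0.06). With the block on line, the shARVCF lines gave 14 synthetase calls, 4 higher and 10 lower, when 47.9% of all genes passed. That fit added WARS (adjusted p = 0.0242) as higher and MARS (0.00462), YARS (0.0118), GARS (0.0188) and the mitochondrial AARS2 (0.0373) as lower.

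SARS, the serine enzyme (hg38, chromosome 1, 109213918 to 109238169, plus strand, 12 exons), read 4208, 4352 and 5359 in the untreated shARVCF lines and 8646, 9025 and 11390 under nutlin-3a. It read 4192 in the untreated control and 13509, 14694 and 14682 in the nutlin-3a control. No treated library came near an untreated one, and the 3 lines rose by almost the same amount (log2 1.04, 1.05 and 1.09). The rise was 2.08-fold in the shARVCF lines (log2 1.06, SE 0.12, limma adjusted p = 2e-05) and 3.41-fold in the control (log2 1.77, SE 0.17, adjusted p = 3.76e-06). With the length and GC trend removed the values were 1.06 and 1.47, both called.

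FARSB, the beta subunit of the phenylalanine enzyme, read 1163, 1150 and 1358 in the untreated shARVCF lines and 631, 653 and 798 under nutlin-3a (log2 -0.82, SE 0.12, limma adjusted p = 0.000141). In the control line it went from 1216 to 1072, 909 and 879 and was not called (log2 -0.36, SE 0.17, adjusted p = 0.091; 0.0358 with the block on line). FARSA, the alpha subunit of the same enzyme, had another pattern. It read 671, 672 and 862 and then 626, 679 and 830 in the shARVCF lines (log2 -0.05, not called), and went from 715 to 1139, 1402 and 1220 in the control line (log2 0.80, SE 0.19, adjusted p = 0.00334). Removing the length and GC trend left FARSA at 0.22 in the control line, which was not called (adjusted p = 0.325). The remaining falls in the shARVCF lines were small: LARS (log2 -0.39), IARS (-0.35) and KARS (-0.34), each a part of the multisynthetase complex. The LARS, IARS and KARS calls were lost on removing the trend (adjusted p 0.0526, 0.127 and 0.0601). IARS and KARS were also lost without untreated line 3 (0.0839 and 0.091), treated line 1 (0.0768 and 0.0573) or treated line 2 (0.081 and 0.112), and KARS without untreated line 1 (0.0797).

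In the control line, HARS, the histidine enzyme, went from 1012 to 1883, 1802 and 1720 (log2 0.83, SE 0.14, limma adjusted p = 0.000284), and RARS, the arginine enzyme, from 1856 to 2440, 2480 and 2587 (log2 0.43, SE 0.13, adjusted p = 0.0121). In the shARVCF lines HARS read 1012, 1116 and 1019 and then 1000, 1193 and 1231 (log2 0.12, not called), and RARS 1850, 1832 and 1934 and then 1584, 1801 and 1941 (log2 -0.08, not called). WARS also rose in the control line (log2 0.61, adjusted p = 0.0304), a call lost without any 1 of the nutlin-3a control libraries (0.054 to 0.0664). CARS, the cysteine enzyme, went from 28.3 to 67.2, 84.8 and 76.4 (log2 1.39, SE 0.36, adjusted p = 0.00585), and in the shARVCF lines read 52.7, 42.2 and 52.7 and then 38.3, 27.6 and 49.4 (log2 -0.38, not called). These CARS values are the lowest of any tested cytosolic member, and CARS shares 12252 bases with the antisense gene CARS-AS1. Its control call was not made in the first library series alone, which holds 1 nutlin-3a control library (log2 1.22). DARS, the aspartate enzyme, went from 1671 to 931, 710 and 771 in the control line (log2 -1.06, SE 0.15, adjusted p = 5.63e-05) but only from 1826, 1806 and 1762 to 1468, 1522 and 1603 in the shARVCF lines (log2 -0.23, SE 0.10, adjusted p = 0.0892). IARS (log2 -0.72), EPRS (-0.57) and LARS (-0.56), whose mRNAs are the longest of the class, were called lower in the control line as well. Of the synthetases with the TGATGCAA core printed above, IARS was called lower in both kinds of line and CARS higher in the control line. AARS (log2 -0.10 and -0.06), MARS, NARS (0.20 and -0.20) and TARS (-0.16 and 0.25) were called in neither by the main test. With the length and GC trend removed, NARS was called higher in the shARVCF lines (0.33, adjusted p = 0.017) and TARS in the control line, as given below. The calls of RARS (adjusted p = 0.0503), EPRS (0.0563) and WARS (0.128) were lost with library series as a term.

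Among the mitochondrial synthetases, 2 of 16 rose and 2 fell in the shARVCF lines, and 2 rose and 3 fell in the control line, with medians of 0.00 and 0.03. CARS2, the mitochondrial cysteine enzyme, read 170, 174 and 170 in the untreated shARVCF lines and 269, 256 and 293 under nutlin-3a. It went from 133 in the untreated control to 419, 381 and 496. Each treated library is above each untreated one, with log2 rises of 0.66 (SE 0.13, limma adjusted p = 0.00152) and 1.69 (SE 0.19, adjusted p = 1.09e-05).

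HARS2, which shares 437 bases with HARS on the other strand, was called higher in the shARVCF lines at log2 0.27 (limma adjusted p = 0.0441). The call was lost when any 1 shARVCF library was left out (0.0623 to 0.128) or without nutlin-3a control replicate 3 (0.0504). SARS2 fell by 0.40 on the log2 scale there (adjusted p = 0.0384), a call lost without untreated line 2 (0.0839) or 3 (0.123) and without treated line 1 (0.155) or 2 (0.0578). FARS2 was called higher in the control line (log2 0.95, adjusted p = 0.00353), and IARS2 (log2 -0.47) and LARS2 (log2 -0.37) lower. The IARS2 call was lost without nutlin-3a control replicate 2 (0.0662), and IARS2 (0.13) and LARS2 (0.0713) with library series as a term. Removing the length and GC trend left FARS2 at 0.41, not called (adjusted p = 0.162). With the block on line, 20 synthetases were called in the control line against 61.8% of all genes. The 5 added to the main calls were FARSB, GARS (adjusted p = 0.0086), AARS2 (0.013), HARS2 (0.0485) and YARS2 (0.0456).

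**Figure D2:**
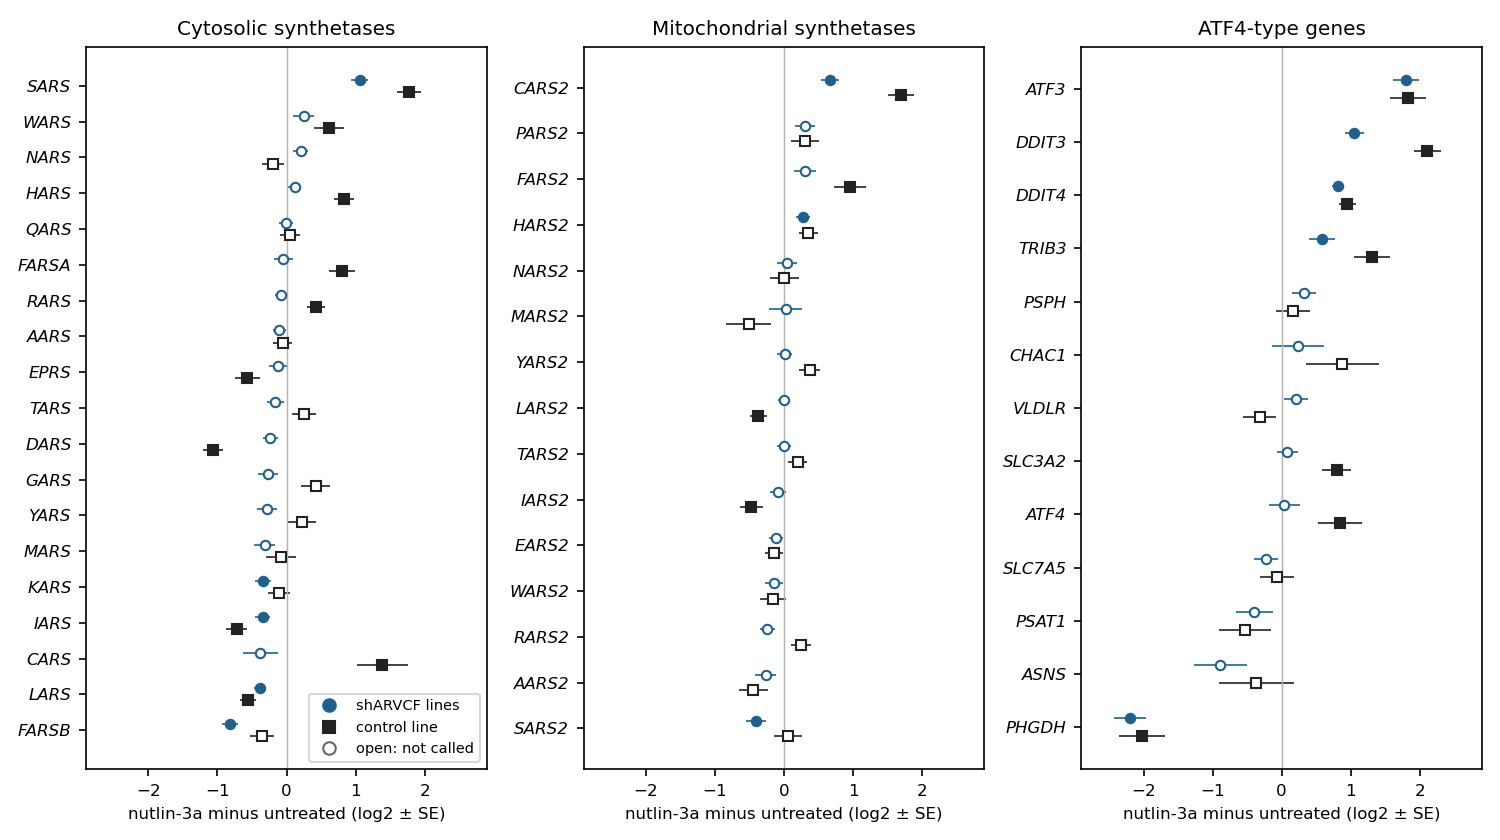
Nutlin-3a response (horizontal axis, log2 of treated minus untreated, with SE bars) of tested members in the shARVCF lines (circles) and the control line (squares), in 3 panels by class; filled symbols are called and open ones are not. SARS, CARS2, ATF3, DDIT3, DDIT4 and TRIB3 are called higher and PHGDH, IARS and LARS lower in both, while HARS, FARSA and CARS are called higher in the control line and not called in the shARVCF lines.

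The control line response went with transcript length. Across the 14955 tested genes, the control line's log2 change had a Spearman correlation of -0.43 with spliced length, against -0.02 in the shARVCF lines. Genes are not independent replicates, and the value describes these libraries. When each library's trend with length and GC was removed, EPRS stood at log2 0.24, IARS at 0.02, LARS at 0.29, IARS2 at 0.06 and LARS2 at 0.07 in the control line, none of them called. TARS, whose spliced length of 4314 bases is also long, was then called higher (log2 0.94, limma adjusted p = 0.00109), HARS2 also higher (0.34, adjusted p = 0.0463), and SARS2 lower (-0.55, adjusted p = 0.0293). After removal, 8 synthetases were called higher and 3 lower in the control line, against 28.7% and 21.1% of all genes, and 5 ATF4-type genes higher and 1 lower. In the shARVCF lines the counts were 4 and 3 for synthetases, against 24.4% and 20.7% of all genes. Called in the control line with and without the trend, in the same direction, were SARS, HARS, CARS, RARS, WARS, CARS2 and DARS. The same held for ATF3, DDIT3, TRIB3, DDIT4 and PHGDH. Whether the trend comes from the cells or from library preparation was not tested.

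**Figure D3:**
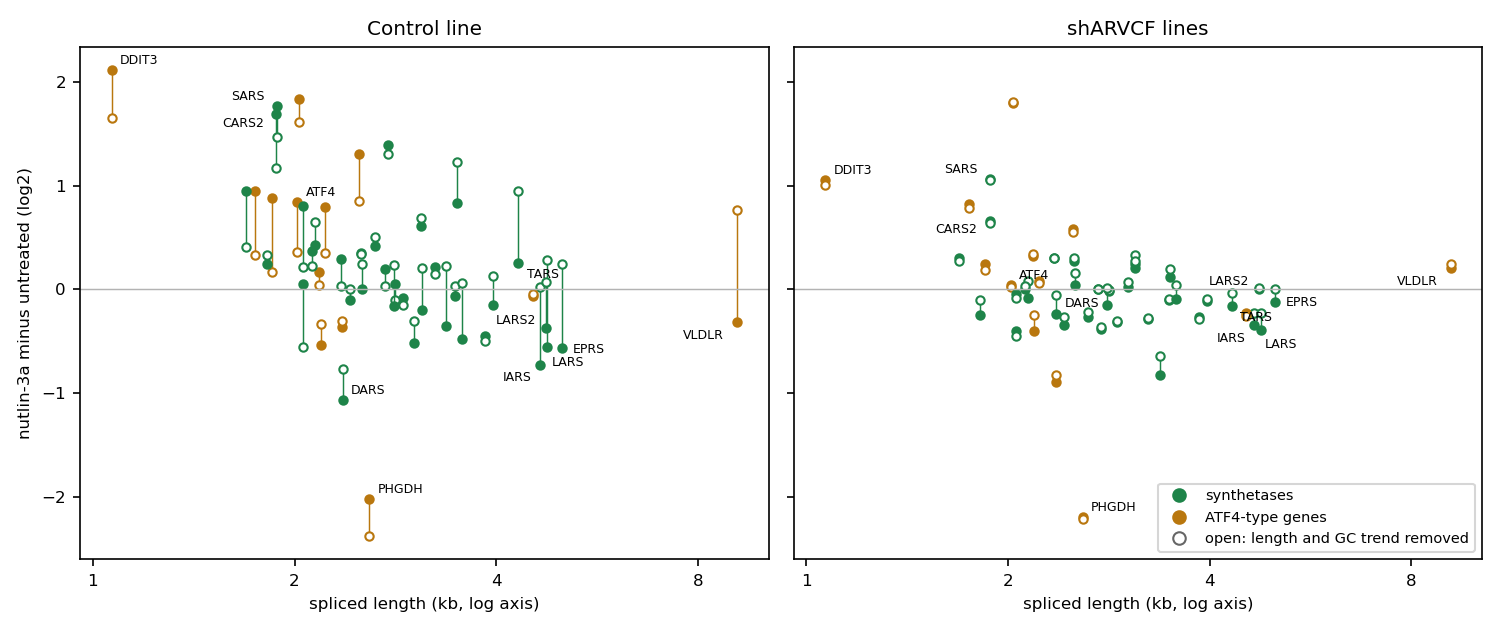
Nutlin-3a response (vertical axis, log2 of treated minus untreated) of the tested members against spliced length (horizontal axis, kb, log scale) in the control line and the shARVCF lines; filled points are the main values, open points the values after removal of the length and GC trend, joined by a line for each gene. In the control line EPRS, IARS and LARS move from -0.57, -0.72 and -0.56 to 0.24, 0.02 and 0.29, and VLDLR from -0.32 to 0.76, while the points of EPRS, IARS and LARS in the shARVCF lines move from -0.12, -0.35 and -0.39 to 0.00, -0.23 and -0.22.

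Among nutlin-3a libraries, DARS was higher and HARS, RARS, FARSB and DDIT3 were lower in the shARVCF lines than in the control line. DARS read 1468, 1522 and 1603 against 931, 710 and 771 (log2 0.94, SE 0.10, limma adjusted p = 8.88e-06). HARS read 1000, 1193 and 1231 against 1883, 1802 and 1720 (log2 -0.66, SE 0.10, adjusted p = 0.000101). The differences of RARS, FARSB and DDIT3 were log2 -0.50 (adjusted p = 0.000461), -0.46 (0.00556) and -0.79 (0.000409). In each case the 3 shARVCF libraries lay wholly on one side of the 3 control libraries. Of all 14955 tested genes, 5205 lay wholly higher in this way and 4383 wholly lower. DARS, HARS, RARS, FARSB and DDIT3 were called in this comparison under every alternative run; the other 21 of the 26 member calls were not.

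In all, 8 of 35 synthetases were called higher and 12 lower, 20 in all, where 58.4% of all genes were called (32.3% higher, 26.1% lower). Of the ATF4-type genes 3 were higher (PSAT1, PSPH and VLDLR) and 3 lower (DDIT3, SLC3A2 and ATF4). With the length and GC trend removed, 1 synthetase was higher and 9 lower, against 15.9% and 23.0% of all genes, and 2 ATF4-type genes were higher (PSPH and DDIT4) and 1 lower (DDIT3). VLDLR then stood at -0.43 and PSAT1 at 0.58, neither of them called. LARS changed sign and was called lower (log2 0.36 before, -0.36 after, adjusted p = 0.00566), and TARS (-0.83, adjusted p = 0.000323), WARS2 (-0.41, 0.0138) and KARS (-0.33, 0.0288) were added as lower. SARS was lower in the shARVCF lines (log2 -0.57, limma adjusted p = 0.00156) but not called after removal (-0.28, adjusted p = 0.066). The block on line lost LARS2 (adjusted p = 0.0796), TARS2 (0.0602) and PSAT1 (0.0616). ATF4 (log2 -0.58, adjusted p = 0.0479) was lost without any 1 of the nutlin-3a control libraries (0.0954 to 0.117). Across all genes this comparison had a Spearman correlation of 0.58 with spliced length.

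Without drug, limma called none of the 48 members between shARVCF and control lines, where 0.0201% of all genes (3, all higher, so 0.00% lower) were called. At an unadjusted p under 0.05, 1 synthetase and 0 ATF4-type genes passed, against 1.58% of all genes. That gene was GARS, named after its value was seen, at 4867 in the control and 6879, 6118 and 8315 in the shARVCF lines (log2 0.53, SE 0.21, adjusted p = 1). The comparison rests on the single control library. For 10 of 19 cytosolic synthetases all 3 shARVCF lines lay above the control library and for 0 all lay below, against 19.0% and 20.9% of all genes. For ATF4-type genes these counts were 5 and 0 of 13, with a median log2 difference of 0.27 against -0.01 over all genes. ASNS read 825 against 1410, 813 and 1999, so that line 2 lay at the control's level.

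The nutlin-3a effect itself differed between shARVCF and control lines for 8 synthetases, 2 more positive and 6 more negative in the shARVCF lines, and for 1 ATF4-type gene, DDIT3. Over all genes 31.8% differed (19.3% more positive, 12.5% more negative). DARS (difference log2 0.83, SE 0.18, limma adjusted p = 0.00406) and HARS (-0.71, SE 0.17, adjusted p = 0.00759) kept this call in every alternative run. DDIT3 differed by log2 -1.06 (SE 0.24, adjusted p = 0.00619). With the length and GC trend removed, it was -0.64 and not called (adjusted p = 0.105), and 1 synthetase was more positive and 6 more negative, against 5.28% and 8.22% of all genes. Added by that removal were TARS (-0.98, adjusted p = 0.0135), FARSB (-0.87, 0.0158) and LARS (-0.51, 0.043). With the block on line, 12 synthetases and 5 ATF4-type genes were called, against 38.5% of all genes. The ATF4-type genes added were ATF4 (adjusted p = 0.00058), TRIB3 (0.00578), SLC3A2 (0.00675) and ASNS (0.0428), all more negative in the shARVCF lines, and the synthetases EPRS, FARSB, GARS and YARS.

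The shARVCF lines differed among themselves, and line 3 stood highest for most ATF4-type genes in both conditions. This holds for 11 of 13 ATF4-type genes (84.6%), 14 of 19 cytosolic synthetases (73.7%) and 6 of 16 mitochondrial synthetases (37.5%), against 20.3% of all tested genes. The median excess of line 3 over the mean of lines 1 and 2 was log2 0.54 untreated and 0.57 under nutlin-3a for the ATF4-type genes. It was 0.20 and 0.31 for the cytosolic synthetases, and -0.01 and 0.02 over all genes. CHAC1 (log2 1.01 untreated and 1.02 treated), ASNS (0.90 and 1.07), ATF4 (0.63 and 0.68) and PSAT1 (0.64 and 0.57) led when the genes are ordered by the smaller of their excesses in the 2 conditions. PHGDH (0.33 and 0.87), TRIB3 (0.45 and 0.69) and PSPH (0.31 and 0.58) had more of an excess under nutlin-3a. DDIT3 went the other way (-0.29 and -0.25), and ATF3 was highest in line 3 only without drug. Of the 12 of these cytosolic synthetases often listed as ATF4 targets, line 3 was highest for 10 (83.3%), and of 27 other ATF4-type genes for 18 (66.7%). It was highest for 5 of 8 synthetase partners (62.5%) and 7 of 16 eIF2 kinases, eIF2 and eIF2B subunits and feedback genes (43.8%). Of 17 genes of the endoplasmic reticulum branches ATF6 and XBP1 it was highest for 3 (17.6%). Each line is 1 shRNA and 1 library per condition, so no test of line 3 was made, and the cells' state and the shRNA's sequence cannot be told apart.

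**Figure D4:**
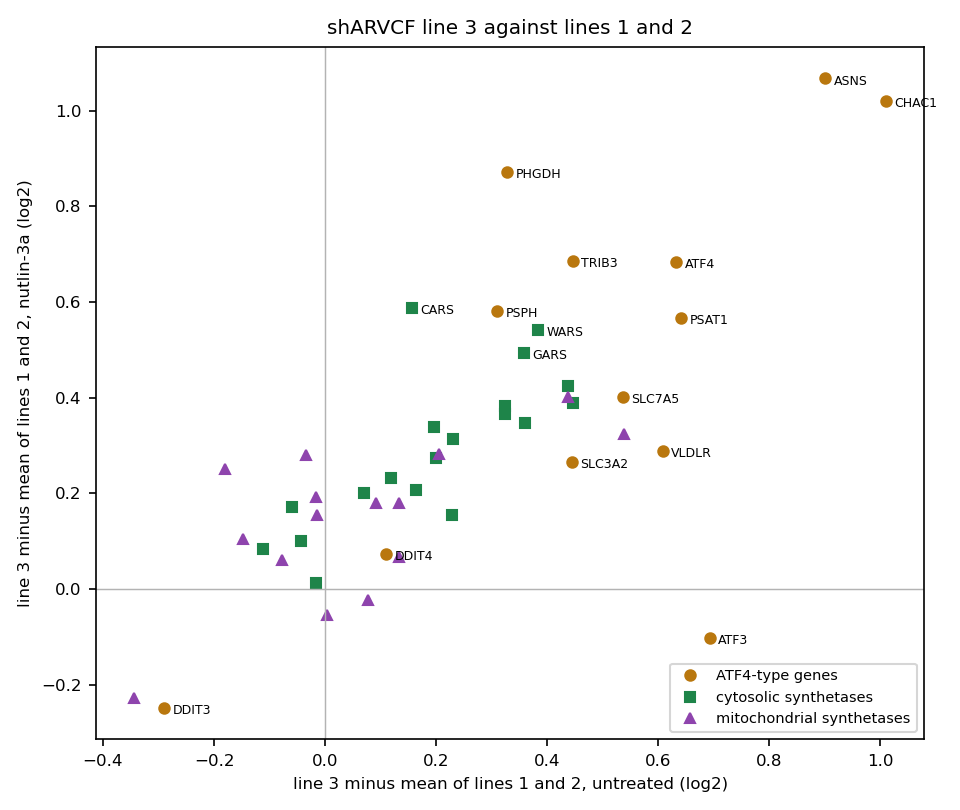
Level in shARVCF line 3 minus the mean of lines 1 and 2 (log2), untreated on the horizontal axis and under nutlin-3a on the vertical axis, 1 point per member shown. The ATF4-type genes other than DDIT3, ATF3 and DDIT4 lie at 0.31 or more untreated and 0.27 or more treated, with CHAC1 and ASNS near 1 on both axes.

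The shares of further pathway genes are given beside those of all genes, 21.0% higher and 21.7% lower (median log2 -0.00) in the shARVCF lines, against 25.1% and 32.0% (median -0.10) for the control, and were not tested as groups. Of 27 other ATF4-type genes 5 rose and 9 fell in the shARVCF lines (median log2 -0.34), and 3 rose and 8 fell in the control line (median -0.32), so that both medians lie below those of all genes. In the control line 19 of the 27 had all 3 treated libraries below the untreated one, as had 6898 of the 14955 tested genes. NUPR1, a stress-induced chromatin protein, rose by log2 1.94 and 3.23 (limma adjusted p = 9.38e-08 and 3.85e-08), and SESN2, a leucine sensor that is also a p53 target, by 2.38 and 2.42 (1.55e-07 and 2.26e-06). SLC7A11, the cystine importer, had log2 changes of -1.03 and -2.91 (0.000132 and 3.47e-07). SLC7A3, an importer of arginine and lysine, went from 34.2 ± 3.88 to 2.16 ± 0.50 (SD, n = 3) in the shARVCF lines, close to 0, and fell as well (0.000114). Of 16 eIF2 kinases, eIF2 and eIF2B subunits and feedback genes, 2 rose and 2 fell in the shARVCF lines and 6 rose and 6 fell in the control line (medians -0.09 and -0.21). With the length and GC trend removed, 7 rose and 1 fell in the control line (median 0.25), against 28.7% and 21.1% of all genes (median 0.10). In the shARVCF lines 3 then rose and 0 fell (median -0.02), against 24.4% and 20.7% (median 0.05). PPP1R15A (GADD34), which guides the phosphatase that reverses eIF2 phosphorylation, rose most, by log2 1.41 (SE 0.10, adjusted p = 3.04e-07) and 2.31 (SE 0.15, adjusted p = 1.15e-07). EIF2AK4 (GCN2), the kinase that senses uncharged tRNA, was higher in the shARVCF lines than in the control line under nutlin-3a (log2 1.09, adjusted p = 6.12e-07; 0.44 with the trend removed, adjusted p = 0.00167).

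Of 17 ATF6 and XBP1 genes, 5 rose and 2 fell in the shARVCF lines and 8 rose and 2 fell in the control line (medians -0.04 and 0.33). HERPUD1, of the degradation machinery, rose in both (log2 0.40 and 1.10, limma adjusted p = 0.00799 and 4.3e-05). MANF, a secreted stress protein, fell by 0.33 on the log2 scale in the shARVCF lines (adjusted p = 0.0267) and was called higher in the control line (0.81, adjusted p = 0.000658), where it stood at 0.15 and was not called with the trend removed. Of 8 synthetase partners, 1 rose and 2 fell in the shARVCF lines, and 2 rose and 1 fell in the control line. AIMP2, a scaffold of the multisynthetase complex, fell in the shARVCF lines (log2 -0.46, limma adjusted p = 0.00433), and AIMP1 rose in the control line (0.63, adjusted p = 0.00454). With the trend removed, AIMP2 was called lower in both kinds of line (-0.50 and -0.47, adjusted p = 0.000877 and 0.0106). AIMP1 was then called higher in both (0.42 and 1.18, adjusted p = 0.00233 and 1.39e-05). XPOT, which exports tRNA from the nucleus, was called lower in both (log2 -0.39 and -1.02, adjusted p = 0.0142 and 0.000165), but stood at -0.25 and 0.01 with the trend removed, not called in either.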

How the data were processed

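The submitters' processing notes name bcl2fastq 1.8.3 for the reads, HISAT2 2.1.0 and hg38 for alignment, and Cuffnorm 2.2.1. The authors deposited a signal per gene and library, an estimated and scaled number of fragments that is not a whole count. Which annotation the authors counted on no source used here says. Symbols were matched to GENCODE release 29 for position and spliced length (24017 of 26040 by name, 741 by another name). The 14955 genes reaching 10 in 3 or more libraries were fitted on log2(value + 1) with limma 3.58.1 (R 4.3.3), as 4 group means over 10 libraries with 6 residual degrees of freedom, variance trend and robust weights. Tests are two-sided with Benjamini-Hochberg adjustment over all tested genes, called at 0.05. Fold changes are on the log2(value + 1) scale, which shrinks those of low genes. The fitting code was tested on simulated data.

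Lines pair the shARVCF libraries, since each line gave 1 library per condition; across genes, deviations from the group means correlated at 0.275, 0.288 and 0.327 within lines and below 0 between lines. The labels do not say that libraries came from separate cultures, so p-values measure the spread between these libraries. Alternatives were pseudocounts of 0.1 and 10, no filter, upper-quartile and relative log expression factors, removal of each library's spline trend (4 degrees of freedom) with length and GC over 14746 genes, the first library series alone or series as a model term, a block on line and each library left out. Every member could be named. Values in every library went to called members with a mean of at least 50 and the largest changes of their class, and to others such as ATF4, ASNS and CARS picked after their values were seen. Other lists were named by their lowest adjusted p, up to 4 genes a comparison. Members and lists were chosen with earlier results of these data known. One member and a marker gene are not reported here by name; counts over lists include them.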

Additional observations from a re-analysis of the deposited data

Results flagged for a closer look

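For 8 members described here the nutlin-3a effect differed between the shARVCF lines and the control line by the test of the difference itself (limma, adjusted over all genes), which also called 31.8% of all genes. The values are the effect in the shARVCF lines minus that in the control line on the log2 scale, 3 lines against 1 line with 1 untreated library. Among cytosolic synthetases DARS differed by 0.83, CARS by -1.77, FARSA by -0.85, HARS by -0.71, SARS by -0.71 and RARS by -0.51. Among mitochondrial synthetases CARS2 differed by -1.02, and DDIT3 differed by -1.06. SARS, CARS2 and DDIT3 were called in the same direction in both kinds of line, so that for them the size differed. With the length and GC trend removed, DARS (0.71), HARS (-1.03), CARS (-1.67) and RARS (-0.57) were still called, and SARS (-0.41), CARS2 (-0.53), FARSA (-0.30) and DDIT3 (-0.64) were not. In the first library series alone, the control line's effect is replicate 1 against the 1 untreated library. There DARS differed by 0.61, HARS by -0.78, CARS2 by -0.99 and DDIT3 by -1.24. Without nutlin-3a control replicate 3, RARS stood at -0.49 and was not called (adjusted p = 0.0503). The cause of these differences was not tested.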

How the results depend on the processing

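Over all alternatives that gave a value, 8 of the 14 calls in the shARVCF lines, 10 of 22 in the control line, 5 of 26 between shARVCF and control lines under nutlin-3a and 2 of 9 in the difference of effects were kept. Synthetases called in the shARVCF lines went from 9 to 14 with a replicate block on line and ranged from 5 to 12 with each library left out, 5 without untreated line 3, treated line 1 or treated line 2. Under nutlin-3a between lines, synthetases called went from 20 to 10 with the trend removed, 13 with library series as a term and 12 in the first series alone (17 to 24 with libraries left out). ATF4-type genes called went from 6 to 3, 3 and 2 under the same settings (3 to 8 with libraries left out, 3 without nutlin-3a control replicate 3). In the difference of effects, synthetases called went from 8 to 4 with library series as a term and 3 in the first series (7 to 10 with libraries left out). ATF4-type genes called went from 1 to 2 with upper-quartile factors, 2 with relative log expression factors, 2 with library series as a term, 5 with the replicate block and 0 with the trend removed, where 2 passed an unadjusted p under 0.05 (1 to 4 with libraries left out, 4 without treated line 3). Leaving libraries out gave 5 to 6 ATF4-type genes in the shARVCF lines, 14 to 16 synthetases and 6 to 7 ATF4-type genes in the control line, and 0 in the untreated comparison. The shares of all genes given above cover the main fit, the trend removal and, in part, the block. For the series, scaling and left-out fits no such share is given. There a change in the counts of members cannot be told apart from a change over all genes.

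Removing the length and GC trend changed the sign of 14 values that were called before or after it; values called in neither fit are not listed. In the control line these were EPRS 0.24, IARS 0.021, IARS2 0.064, LARS 0.29, LARS2 0.071, SARS2 -0.55 and VLDLR 0.76. Between lines under nutlin-3a they were EPRS -0.13, IARS -0.20, LARS -0.36, LARS2 -0.18, SARS2 0.12 and VLDLR -0.43, and in the difference of effects LARS -0.51. The block changed no call beyond those given above. Other scalings moved the median of all genes in the control line from -0.10 to at most 0.07. Without the lone untreated control library, 3 comparisons gave no value. The first series alone and series as a term both rest on 1 nutlin-3a control library, replicate 1, so they are not separate checks of the control line. The depth of single libraries is known only as scaled totals, and the lowest values, such as those of CARS, have the fewest fragments behind them.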
